A study of Saccharomyces cerevisiae BY4741 with 66 samples.

Results

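ARC1-GFP is a budding yeast strain in which Arc1, the tRNA-binding cofactor of the methionyl- and glutamyl-tRNA synthetases, carries GFP. Its members here are the 4 libraries whose titles name ARC1-GFP, out of 66 in the series: 2 IP translatomes and 2 total translatomes, of which replicate 1 and replicate 2 of each fraction are numbered in the titles. In selective ribosome profiling, the total translatome holds the ribosome-protected mRNA fragments (footprints) of all translating ribosomes, and the IP translatome holds those of ribosomes that came down on GFP antibody beads with the tagged protein. The question of the comparison is which nascent chains were held by Arc1-GFP while still being made. All 4 libraries are labelled BY4741, a haploid MATa laboratory strain, grown in YPD at 30 °C with shaking at 150 rpm. The other strains carry the same label and were grown in the same medium, except that TRP2-GFP and TRP3-GFP were grown in SD-trp and CPA1-GFP in SD-arg, and strains with an MPT deletion in FAS1 or FAS2 received fatty acids. Cells were filtered, frozen and milled. The labels give neither the end of Arc1 that carries GFP, nor whether the fusion replaced the normal gene, nor whether replicate libraries were made from separate cultures. The p-values below therefore reflect the variation between libraries, which may be technical.

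Aminoacyl-tRNA synthetases join each amino acid to its tRNA. In budding yeast, GUS1 encodes the cytosolic glutamyl-tRNA synthetase and MES1 the cytosolic methionyl-tRNA synthetase. Arc1 binds both enzymes through a glutathione S-transferase-like domain at its N-terminus, and its C-terminal part binds tRNA. When a subunit engages its partner on the ribosome, footprints of the partner's mRNA become more frequent in the IP of the subunit.

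Values per gene were available for analysis in 50 libraries (15 tagged strains), and levels are given below as RPM (reads relative to a fixed library total) after further scaling between libraries. Depth differed between the fractions: the ARC1-GFP IPs held 3.05 M and 1.54 M implied reads, and the totals 12.6 M and 22.5 M. Reads over genes made up 59.4% and 57.8% in the IPs and 86.9% and 91.7% in the totals. MATa-specific genes summed to 595 and 625 scaled RPM in the IPs and 743 and 744 in the totals, and MATalpha-specific genes to 10.8 and 15.7 in the IPs and 2.64 and 1.92 in the totals. In such bulk lysates, fewer cells of a type and fewer footprints per cell cannot be told apart. In 4 of the 10 replicated strains (FAS1-GFP, FAS2-GFP, FAS1-GFP FAS2dMPT and TRP2-GFP, where dMPT names a deletion in FAS2), at least 1 library labelled BY4741 had more MATalpha-specific than MATa-specific footprints. In 24 of 25 pairs of libraries more of the reads lay over genes in the total; the exception was replicate 2 of FAS1-GFP FAS2dMPT, with 94.3% in the library labelled IP and 88.5% in the one labelled total. These strains contribute to the estimate of spread and, for FAS1-GFP, FAS2-GFP and TRP2-GFP, to a reference mean, so the excesses and the main values of that mean are also given without them. PFK1-GFP and PFK2-GFP then remain as the reference, which has limits of its own. PFK1-GFP total 1 held 131 scaled RPM over MATalpha-specific genes, beside 611 over MATa-specific ones. PFK2-GFP IP 1 had only 0.544 M implied reads.

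GUS1 footprints rose 10.4-fold in the ARC1-GFP IP. GUS1 (YGL245W, chromosome VII, 39023 to 41149, plus strand, 2127 nt) had 15082 and 15607 scaled RPM in the 2 IPs, against 1470 and 1471 in the 2 totals. The groups lay far apart, and the libraries within each fraction were close. The log2 difference, IP minus total, was 3.38 ± 0.23 (SE; 2 libraries per fraction), with 3.36 in pair 1 and 3.41 in pair 2. Here and below, the SE uses a spread pooled over the 40 libraries of the 10 replicated strains, not that of ARC1-GFP alone. From the ARC1-GFP libraries alone the SE of GUS1 was 0.028. GUS1 passed the threshold for a call, a Benjamini-Hochberg adjusted p below 0.05 with an absolute log2 difference of at least 1 (limma, adjusted p = 4.49e-10). Of 4982 features tested it was the only one called: 0.0201% were higher, and none was called lower, while at an unadjusted p under 0.05 limma gave 538 higher and 518 lower. GUS1 supplied 2.24% and 2.29% of nuclear reads in the IPs, against 0.167% and 0.170% in the totals. By reads per kilobase it ranked 11 of 6577 nuclear features in each IP, against 242 and 237 in the totals.

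MES1 footprints were about 1.93-fold more frequent in the IP, which did not pass the threshold. MES1 (YGR264C, chromosome VII, 1019598 to 1021853, minus strand) had 1587 and 1634 scaled RPM in the IPs and 830 and 839 in the totals. Both IPs lay above both totals, as they did for 34.3% of all features tested. The log2 difference was 0.95 ± 0.25 (SE), with 0.93 and 0.96 in the 2 pairs (limma adjusted p = 0.127). Setting every library to the same total over genes gave 1.31 with an adjusted p of 0.0174, a call; the median of all features was 0.28 with that scaling, against -0.07 with the scaling used here. Taking the spread from the ARC1-GFP libraries alone gave an adjusted p of 2.85e-05, with the log2 difference still under 1. A second feature of the deposited tables, YGR265W, overlaps MES1, and how shared reads were assigned is not stated in the labels.

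ARC1, the tagged gene itself, had 602 and 557 scaled RPM in the IPs and 736 and 743 in the totals. Both IPs lay below both totals, as for 41.6% of features tested. Its log2 difference was -0.35 ± 0.33 (SE, limma adjusted p = 0.539), and it turned to 0.01 with equal totals over genes. ARC1 (YGL105W) lies on chromosome VII at 307437 to 308567, plus strand. Per kilobase, GUS1 stood 10.1 times above MES1 in both IPs, against 1.88 and 1.86 times in the totals. On the same per-kilobase scale GUS1 stood 13.3 and 14.9 times above ARC1 in the IPs, against 1.06 and 1.05 times in the totals.

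**Figure D1:**
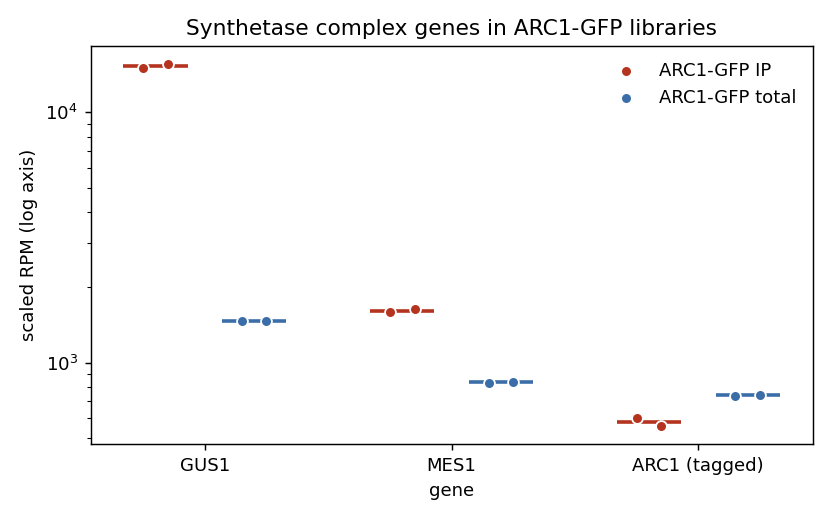
Scaled RPM (log axis) of the 3 synthetase complex genes in each ARC1-GFP library; points are single libraries (replicate 1 left of replicate 2) and lines are group means. GUS1 was at 15082 and 15607 in the IPs against 1470 and 1471 in the totals, MES1 had IPs above totals, and the tagged ARC1 had IPs below totals.

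The same 3 genes were followed in the strains that tag the other 2 subunits. GUS1 footprints stood at a log2 difference of 3.38 in ARC1-GFP, against 4.53 in MES1-GFP, where the pairs gave 4.50 and 4.56. The difference between the strains was -1.15 ± 0.33 (SE; limma adjusted p = 0.999), which did not pass; it was called with the libraries of both strains alone (adjusted p = 8.82e-06) and with a weight for each library (adjusted p = 1.06e-04). MES1 footprints stood at 0.95 in ARC1-GFP, against 4.50 in GUS1-GFP. There the levels were 8999 and 13109 scaled RPM in the GUS1-GFP IPs, against 479 and 478 in its totals. For MES1, ARC1-GFP minus GUS1-GFP was -3.55 ± 0.35 on the log2 scale (SE, limma adjusted p = 3.28e-07). With the libraries of these strains alone its adjusted p was 0.0514, and the GUS1-GFP replicates spread widely.

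ARC1 footprints in strains tagging its partners differed from those in the strain where ARC1 itself was tagged. The log2 difference of ARC1 was -0.35 in ARC1-GFP, against 4.61 in GUS1-GFP and 2.88 in MES1-GFP. ARC1 had 9826 and 15083 scaled RPM in the GUS1-GFP IPs, against 306 and 808 in its totals, and 6051 and 5858 in the MES1-GFP IPs, against 813 and 805 in its totals. For ARC1, ARC1-GFP minus GUS1-GFP was -4.96 ± 0.47 on the log2 scale (SE, limma adjusted p = 1.90e-07; 0.205 with these strains alone). ARC1-GFP minus MES1-GFP was -3.23 ± 0.47 for ARC1 (SE, limma adjusted p = 0.00135; 0.777 with no further scaling, and 0.0601 without the 4 strains that hold MATalpha-marked libraries). GUS1, tagged in GUS1-GFP, gave -0.31 there, and the difference between ARC1-GFP and GUS1-GFP was 3.70 (limma adjusted p = 1.31e-07; 0.0514 with these strains alone). Each tagged gene had a difference near 0 or below in its own strain: -0.35 for ARC1, -0.31 for GUS1 and -0.28 for MES1. GUS1, MES1 and ARC1 were the only features called between ARC1-GFP and GUS1-GFP (0.0201% higher, 0.0401% lower), and ARC1 the only one called between ARC1-GFP and MES1-GFP (0.0201% lower, none higher; limma gave 8 higher at an unadjusted p under 0.05).

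Strains that tag subunits of other complexes give the level of these genes without a tagged synthetase subunit. Over 12 such strains the log2 difference of GUS1 ran from -0.86 in FAS2-GFP to -0.20 in FAS1-GFP FAS2dMPT, with a median of -0.48, so all lay below 0. Without FAS1-GFP FAS2dMPT, whose pair 2 gave 0.23 and is the pair with fewer reads over genes in the total, the highest of the other 11 was -0.33 and their highest single pair -0.24. MES1 ran from -0.68 to 0.53 with a median of 0.01 in the same strains, and its highest value was in PFK2-GFP. The 2 pairs of PFK1-GFP gave MES1 1.00 and -0.02, and those of PFK2-GFP 0.13 and 0.94, so pair 1 of PFK1-GFP was above the MES1 value of ARC1-GFP and pair 2 of PFK2-GFP just below it. ARC1-GFP ranked 2 of 15 strains for GUS1, after MES1-GFP, and 2 of 15 for MES1, after GUS1-GFP. Relative to the mean of 5 replicated strains with a tagged fatty acid synthase, phosphofructokinase or anthranilate synthase subunit (FAS1-GFP, FAS2-GFP, PFK1-GFP, PFK2-GFP, TRP2-GFP), the excess of GUS1 was 3.92 ± 0.26 (SE, limma adjusted p = 1.27e-10). GUS1 was again the only feature called (0.0201% of those tested higher, none lower; 143 lower at an unadjusted p under 0.05). Without the 4 strains that hold MATalpha-marked libraries, with PFK1-GFP and PFK2-GFP left as the reference, the GUS1 excess was 3.72 (limma adjusted p = 3.28e-06). The MES1 excess was 0.96 ± 0.27 (SE, limma adjusted p = 0.999) over the 5 strains and 0.44 (adjusted p = 0.543) over those 2.

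**Figure D2:**
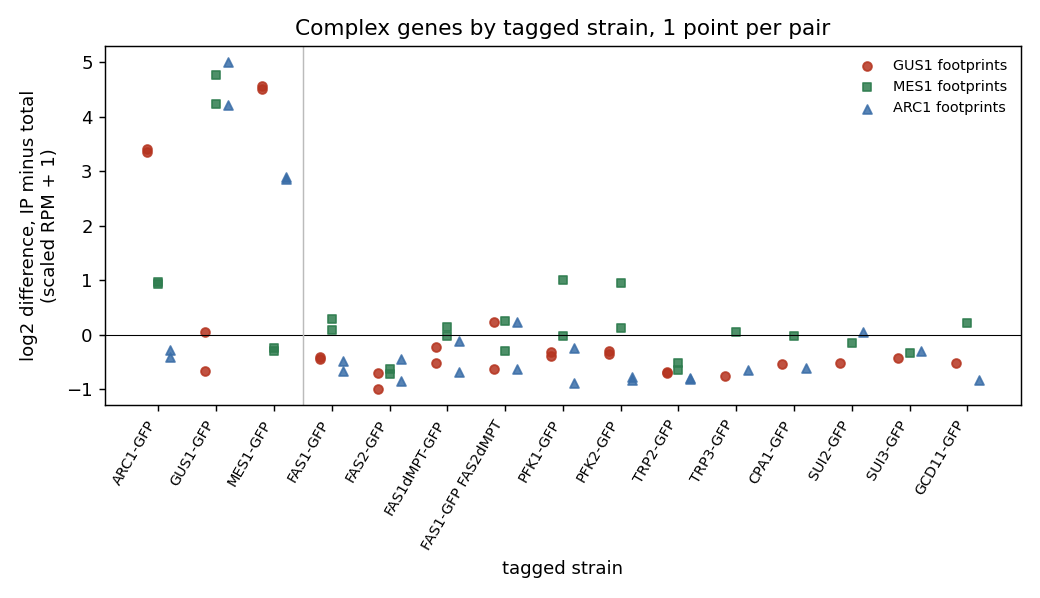
Log2 difference, IP minus total, of GUS1, MES1 and ARC1 footprints in every tagged strain, with 1 point per pair of libraries; the line separates the synthetase complex strains from the others. ARC1-GFP has GUS1 at 3.36 and 3.41 and MES1 at 0.93 and 0.96, while GUS1 is below 0 in every pair right of the line other than pair 2 of FAS1-GFP FAS2dMPT (0.23).

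Beyond the complex, the differences of the 4982 features were close in the 2 pairs, with a Pearson r of 0.832 across features, which share the libraries and are not independent; it was 0.831 without GUS1. Both pairs were above 0 for 37.1% of features and below 0 for 44.2%. The differences also tracked the mean of the 5 strains with other tagged complexes, with r = 0.808 across features. Over PFK1-GFP and PFK2-GFP alone, the 2 of the 5 where no library had more MATalpha-specific than MATa-specific footprints, r was 0.523. Why r was lower there was not tested. The spread used for the calls came from all 40 libraries of the replicated strains. The ARC1-GFP totals had the smallest spread between replicates of the 10 strains (SD of the log2 difference 0.147, the highest being 0.992), and the IPs ranked 2 with 0.409.

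With the spread taken from the ARC1-GFP libraries alone, 396 of 4869 features were called higher in the IP (8.13%) and 95 lower (1.95%). The filter of this fit used the mean of the 4 ARC1-GFP libraries, so a feature low in 1 fraction could pass through the other. Of the 396, 393 (99.2%) also had a mean above 0 in the 5 strains with other tagged complexes, as did 49.1% of all features in that fit. Of the 95, 92 (96.8%) had a mean below 0, as did 50.9% of all. Over PFK1-GFP and PFK2-GFP alone these were 345 (87.1%, beside 48.6% of all) and 90 (94.7%, beside 51.4%). The higher features had a median length of 1942.5 nt and the lower ones of 455 nt, against 1290 nt for the features tested.

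**Figure D3:**
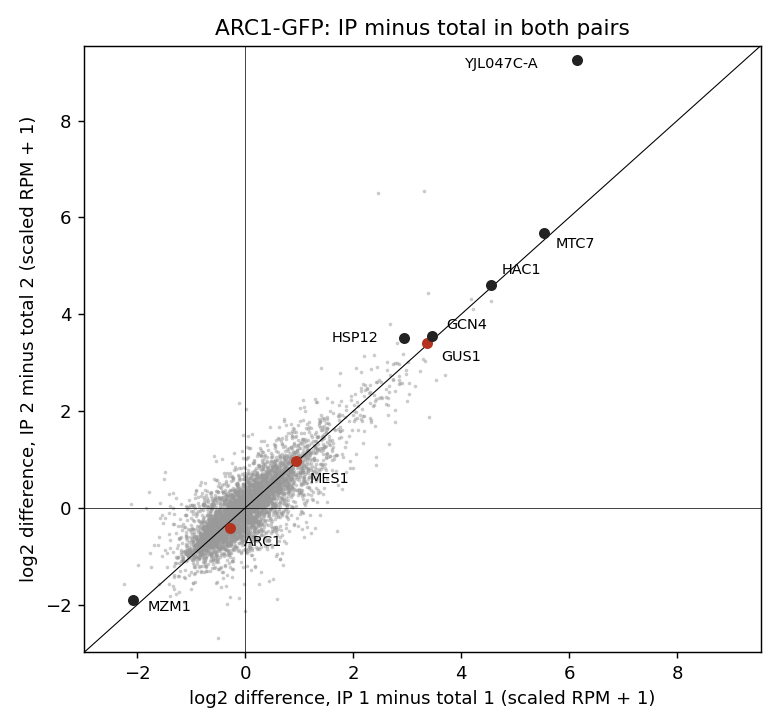
Log2 difference, IP minus total, of 4982 features in pair 1 (horizontal) and pair 2 (vertical) of ARC1-GFP, with the line of equality, complex genes in red and other named features in black. GUS1 at 3.36 and 3.41 lies on the line, with MTC7 and HAC1 farther up; MES1 is at 0.93 and 0.96 and ARC1 below 0 in both pairs.

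Ranked next were features with their own symbol, no overlap with a non-coding RNA gene and the same direction in both pairs. The 10 with the highest difference in ARC1-GFP held GUS1 at rank 4, and the other 9 were not called with the pooled spread. With the ARC1-GFP libraries alone all 9 were called higher, beside 8.13% of all features in that fit. They were picked by their differences in these same libraries, so these calls add no support. MTC7, LPX1, HSP12, BRE4 and TRK2 had both totals under 5 scaled RPM and passed the filter of that fit through their IPs. MTC7 had 113 and 138 scaled RPM in the IPs and 1.46 and 1.71 in the totals, a log2 difference of 5.61 ± 1.57 (SE, limma adjusted p = 0.148). HAC1, which encodes the transcription factor of the unfolded protein response and whose unspliced mRNA is held back from translation by its intron, had 401 and 379 in the IPs and 16.2 and 14.6 in the totals (4.58 ± 0.92 SE, limma adjusted p = 0.0603). Both genes overlap other features of the tables. GCN4, the activator of amino acid biosynthesis genes whose translation is set by upstream reading frames, had 328 and 354 in the IPs and 28.9 and 29.4 in the totals (3.50 ± 1.06 SE).

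HAP1, a heme-responsive transcription factor, had 3408 and 3549 scaled RPM in the IPs, against 346 and 336 in the totals, a log2 difference of 3.35 ± 1.09 (SE). LPX1 (a peroxisomal lipase, 3.36), HOB2 (3.22), HSP12 (a small stress protein of membranes, 3.22), BRE4 (3.18) and TRK2 (a potassium transporter, 3.18) completed the group. For these 10 genes the IPs lay above the totals in every case. MTC7, HAC1, GCN4, LPX1, HAP1, HOB2, BRE4 and TRK2 were also above 0 in at least 13 of the 14 other strains, with medians there of 3.40, 3.07, 2.18, 2.43, 0.99, 1.72, 1.87 and 1.86. ARC1-GFP had the highest value of the 15 strains for MTC7, HAP1 and BRE4, the next being FAS2-GFP at 5.31, MES1-GFP at 2.13 and SUI3-GFP at 3.17; this order was not tested. GUS1 was above 0 in 1 of the 14 and HSP12 in 5.

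The 10 lowest genes by the same rule were not called with the pooled spread, and were short, from 183 nt (COX7) to 930 nt (ACF4). With the ARC1-GFP libraries alone all but COA2 were called lower, beside 1.95% of all features, and COA2 did not pass the filter of that fit. These genes too were picked by their differences in the same libraries, so the calls add no support. MZM1, COX23 and CMI8 had both IPs under 5 scaled RPM and passed it through their totals. ACF4 was close to this, with 5.21 and 3.14 in the IPs and 15.3 and 13.5 in the totals. MZM1, an assembly factor of respiratory complex III, had 2.15 and 2.35 scaled RPM in the IPs and 12.3 and 11.5 in the totals (-1.99 ± 0.45 SE, limma adjusted p = 0.106). COX23 and COA2, which act in cytochrome oxidase assembly, gave -1.91 and -1.59, the COX7 subunit of that enzyme -1.52, and MRP10 of the mitochondrial ribosome -1.58. ZIM17, a partner of the mitochondrial Hsp70, gave -1.53, and TIM8, a small chaperone of the intermembrane space, -1.50. DAD4, of the DASH complex at kinetochores, gave -1.49, ACF4 -1.60 and CMI8 -1.58. COA2 was at 4.46 and 0 scaled RPM in the IPs, against 6.69 and 5.41 in the totals, so it rested on few reads. All 10 were below 0 in at least 13 of the 14 other strains.

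By that rule the highest excess over the 5 strains with other tagged complexes was that of GUS1, followed by 3 stress-induced genes and HAP1 (2.21), none of these 4 called. HSP12 had 31.2 and 40.5 scaled RPM in the ARC1-GFP IPs, against 3.20 and 2.65 in the totals, an excess of 3.10 ± 1.25 (SE, limma adjusted p = 0.999). YGP1, which encodes a secreted glycoprotein made in starvation, had 35.0 and 34.4 in the IPs and 4.01 and 4.35 in the totals, an excess of 2.56 ± 0.78. DDR2, a gene induced by several stresses, had 6.92 and 6.10 in the IPs and 0.893 and 0.955 in the totals, an excess of 2.40 ± 0.75. The IPs lay above the totals for each. The 3 genes also had positive differences in MES1-GFP (3.98, 2.95 and 2.69), and values of 0.77, -0.04 and 0.19 in GUS1-GFP; YGP1 was highest in TRP2-GFP, at 3.45. Their medians over the 14 other strains were -0.50, -0.24 and -0.59. Over PFK1-GFP and PFK2-GFP alone the excess of HSP12 was 3.49, that of YGP1 2.80, that of DDR2 2.74 and that of HAP1 2.08.

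By the same rule the lowest excesses belonged to MFA1 (-1.95), FAS2 (-1.92), HMRA1 (-1.68), TRP3 (-1.49) and MFA2 (-1.42), none called. FAS2 and TRP3 are partners of tagged proteins in the 5 strains: FAS2 stood at -0.04 in ARC1-GFP, against 6.20 in FAS1-GFP, and TRP3 at -0.76, against 3.94 in TRP2-GFP. MFA1 and MFA2, the genes of the mating pheromone a-factor, mark MATa cells. HMRA1 is a silent copy of the MATa1 gene, and the identical sequences can share reads. MFA1 had 63.0 and 58.4 scaled RPM in the ARC1-GFP IPs and 168 and 175 in the totals, a log2 difference of -1.49, against 3.96 in TRP2-GFP. Without the 4 strains that hold MATalpha-marked libraries the excess of MFA1 was -0.58, that of FAS2 -0.56, that of HMRA1 -1.11, that of TRP3 -1.17 and that of MFA2 0.06.

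The genes of known functions were described as lists, each by its median log2 difference beside -0.07 for all features tested. Apart from GUS1, no member of any list was called with the pooled spread. List counts above or below 0 in both pairs are to be read beside 37.1% above and 44.2% below among all features. Of the 20 cytosolic synthetases outside the complex, 19 were below 0 in both pairs, beside 44.2% of all features, and the same number had both IPs below both totals, beside 41.6% of all; the median was -0.51. They ran from KRS1, the lysyl-tRNA synthetase (696 and 700 scaled RPM in the IPs, 1177 and 1195 in the totals; -0.76), to GRS2 (0.47), a second glycyl-tRNA synthetase gene with 20.4 and 17.3 in the IPs and 12.8 and 13.7 in the totals. The sum over these 20 genes was 11007 and 11302 in the IPs, against 15566 and 15744 in the totals. Their median was -0.19 in the mean of the 5 strains with other tagged complexes and 0.10 over PFK1-GFP and PFK2-GFP alone. The 14 mitochondrial synthetases had a median of 0.30, and 10 were above 0 in both pairs, from MSR1, the arginyl enzyme, at 1.59 (15.6 and 20.4 in the IPs, 5.37 and 5.16 in the totals) to MSY1, the tyrosyl enzyme, at -0.42. Their median was 0.38 in the 5 strains with other tagged complexes and 0.43 over PFK1-GFP and PFK2-GFP alone.

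Among proteins related in fold to the complex subunits, 5 of 8 glutathione S-transferase-like genes passed the filter on low values. CAM1 and TEF4, the gamma subunits of the translation elongation factor eEF1B, gave 0.00 and -0.03, URE2, a regulator of nitrogen use, -0.46, GTT1, a glutathione transferase, -0.37 and ECM4, another glutathione transferase, 0.65. CAM1 had 381 and 379 scaled RPM in the IPs, against 389 and 371 in the totals, so the groups overlapped. TEF4 had 2107 and 2957 in the IPs, against 2599 and 2505 in the totals. TEF4 overlaps the non-coding RNA gene SNR38, so its reads cannot be assigned to the coding gene or the non-coding RNA. GTT2 had 6.32 and 5.49 in the IPs and 0.481 and 0.630 in the totals, GTO1 10.04 and 2.35 in the IPs and 0.240 and 0.714 in the totals, and GTO3 at most 0.372; these 3 did not pass the filter. The 28 genes of tRNA processing, modification and export had a median of -0.25, from SEN34, a subunit of the tRNA splicing endonuclease (0.58), to NCL1, a tRNA methyltransferase (-0.66). Of the 28, 15 were below 0 in both pairs and 10 above, beside 44.2% and 37.1% of all features.

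The 9 elongation factor genes were below 0 in both pairs, with a median of -0.65. HEF3, a second eEF3 gene, gave -0.83 and EFT2, for eEF2, -0.34. The near-identical pairs TEF1 and TEF2 and EFT1 and EFT2 can share reads. Of 9 genes for eIF2, eIF2B and CDC123, 7 were below 0 in both pairs (median -0.29), from GCD1 at 0.15 to SUI3 at -0.62. The median of this list and that of tRNA processing turned positive with equal totals over genes (0.07 and 0.11), as did those of the glutathione S-transferase-like genes (0.33), the other tagged subunits (0.18) and the mitochondrial ribosomal proteins (0.03). The distance of each of these lists from the median of all features kept its sign.

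None of the 7 subunits tagged elsewhere in the series was called with ARC1-GFP. FAS1 gave -0.19, FAS2 -0.04, PFK1 -0.05, PFK2 -0.40, TRP2 -0.75, TRP3 -0.76 and CPA1 0.49, with a median of -0.19. Both IPs lay below both totals for 6 of the 7, beside 41.6% of all features tested; the exception was CPA1, the small subunit of arginine-specific carbamoyl phosphate synthetase, with 68.8 and 80.0 scaled RPM in the IPs and 52.9 and 52.5 in the totals. Of 6 genes for the biotin ligase and biotin enzymes, HFA1, the mitochondrial acetyl-CoA carboxylase, gave 2.33 (59.1 and 66.7 in the IPs, 11.3 and 12.1 in the totals). The other 5 ran from BPL1, the ligase, at -0.04, through PYC1 (0.11) and PYC2 (0.14), the pyruvate carboxylases, and ACC1 (0.15), the cytosolic acetyl-CoA carboxylase, to DUR12, urea amidolyase, at 0.42. HFA1 stood at 1.50 in the mean of the 5 strains with other tagged complexes and at 1.06 over PFK1-GFP and PFK2-GFP alone.

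**Figure D4:**
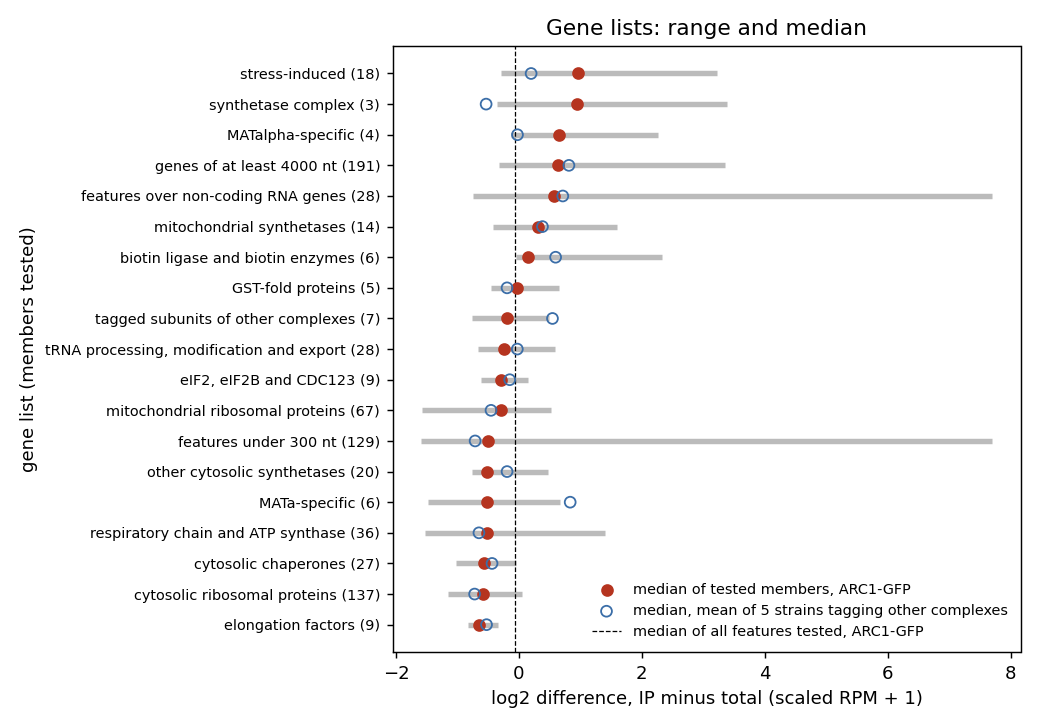
Median (filled) and range (bar) of the log2 difference, IP minus total, of each gene list in ARC1-GFP, beside its median in the mean of 5 strains with other tagged complexes (open); the dashed line is the median of all features in ARC1-GFP. Stress-induced genes had a median of 0.96 in ARC1-GFP, against 0.20 in the 5 strains. Elongation factors and cytosolic ribosomal proteins lay lowest in ARC1-GFP, at -0.65 and -0.59, against -0.53 and -0.72 in the 5 strains.

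Stress-induced genes had a list median of 0.96, against 0.20 in the mean of the 5 strains with other tagged complexes and 0.04 over PFK1-GFP and PFK2-GFP alone. The 0.96 falls between the low-level members HSP30 (1.03) and SPI1 (0.89). HSP30 had 0.744 and 6.28 scaled RPM in the IPs and 0.721 and 0.756 in the totals, so the groups overlapped. SPI1 had 4.01 and 2.35 in the IPs and 1.44 and 1.01 in the totals. No list median was taken for MES1-GFP, where HSP12, YGP1 and DDR2 stood at 3.98, 2.95 and 2.69. The list also held INO1 (2.13). Of 18 members, 14 were above 0 in both pairs and 3 below, beside 37.1% and 44.2% of all features. Beside HSP12 and YGP1, SSA3, an inducible cytosolic Hsp70, had 20.1 and 21.2 scaled RPM in the IPs, against 1.92 and 1.805 in the totals. CTT1, the cytosolic catalase, had 12.3 and 12.6 in the IPs, against 1.58 and 2.16 in the totals, and TSL1, a subunit of trehalose synthase, had 55.6 and 62.8 in the IPs, against 19.5 and 18.6 in the totals. SSA3, CTT1, TSL1 and, below, GPH1 were chosen after their values were seen. The IPs were higher for all 3, while HSP78, a mitochondrial chaperone, was the lowest member (51.7 and 51.8 in the IPs, 61.6 and 65.2 in the totals, -0.29). TPS1 (-0.27) and HSP104 (-0.16) also had both IPs below both totals, and the groups overlapped for HSP26 (-0.03). With the ARC1-GFP libraries alone, 6 of the 14 members tested were called higher (HSP12, SSA3, CTT1, GPH1, TSL1, YGP1), beside 8.13% of all features. HSP12, SSA3, CTT1 and YGP1 had both totals under 5 scaled RPM and passed the filter of that fit through their IPs. The count therefore follows in part from the filter.

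Of 27 cytosolic chaperone genes, 25 were below 0 in both pairs, with a median of -0.56, from CCT6 of the TRiC chaperonin (-0.04) to GIM4 of prefoldin (-1.02). The chaperone median was -0.44 in the mean of the 5 strains with other tagged complexes and -0.17 over PFK1-GFP and PFK2-GFP alone. Cytosolic ribosomal protein genes were below 0 in both pairs for 136 of 137 (median -0.59), with RPS12 at 0.04 and RPL1A at -1.15; RPL1A and RPL1B encode the same protein and can share reads. The summed level of the 137 was 123485 and 126480 scaled RPM in the IPs, against 197148 and 193319 in the totals. In the 5 strains with other tagged complexes their median was -0.72, and -0.86 over PFK1-GFP and PFK2-GFP alone.

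Respiratory chain and ATP synthase genes had a median of -0.52. It was -0.65 in the mean of the 5 strains with other tagged complexes and -0.62 over PFK1-GFP and PFK2-GFP alone. Of the 36, 30 were below 0 in both pairs. QCR6, a subunit of complex III, was the exception that was above 0 in both, with 35.2 and 36.1 scaled RPM in the IPs and 12.7 and 13.1 in the totals (1.40 ± 0.35 SE, limma adjusted p = 0.125). It was called with equal totals over genes. The 67 mitochondrial ribosomal protein genes had a median of -0.30, from MRP7 (0.53) to MRP10 (-1.58), with 42 below 0 in both pairs, beside 44.2% of all features. Their median was -0.45 in the 5 strains and -0.44 over the 2.

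The mating-type genes check the label. MATa-specific genes were well above MATalpha-specific ones in all 4 ARC1-GFP libraries. STE2, the alpha-factor receptor, had 153 and 171 scaled RPM in the IPs and 147 and 147 in the totals. STE6, the a-factor exporter, gave 0.67, BAR1, the alpha-factor protease, -0.22, AGA2, an a-agglutinin subunit, -0.82 and MFA2 -0.92. Of the MATalpha-specific genes, SAG1, alpha-agglutinin, had 9.67 and 12.6 in the IPs and 2.16 and 0.965 in the totals, MF(ALPHA)1 at most 1.57, MF(ALPHA)2 at most 1.12 and STE3, the a-factor receptor, at most 0.784.

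The median log2 difference was higher in classes of longer features. It was -0.51 under 300 nt, -0.47, -0.33 and -0.12 up to 1500 nt, 0.07 and 0.28 up to 3000 nt, 0.43 up to 4000 nt and 0.64 from there on. In the mean of the 5 strains with other tagged complexes the same classes ran from -0.71 to 0.81, and over PFK1-GFP and PFK2-GFP alone from -0.71 to 0.84. Of 191 genes of at least 4000 nt tested, 170 were above 0 in both pairs, beside 37.1% of all features. The 191 ran from HAP1 (3.35) to CHC1, the clathrin heavy chain (-0.33). Of 431 features under 300 nt, 129 passed the filter, so their median describes the better covered ones. GUS1, at 2127 nt, lay in a class with quartiles of -0.05 and 0.65.

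**Figure D5:**
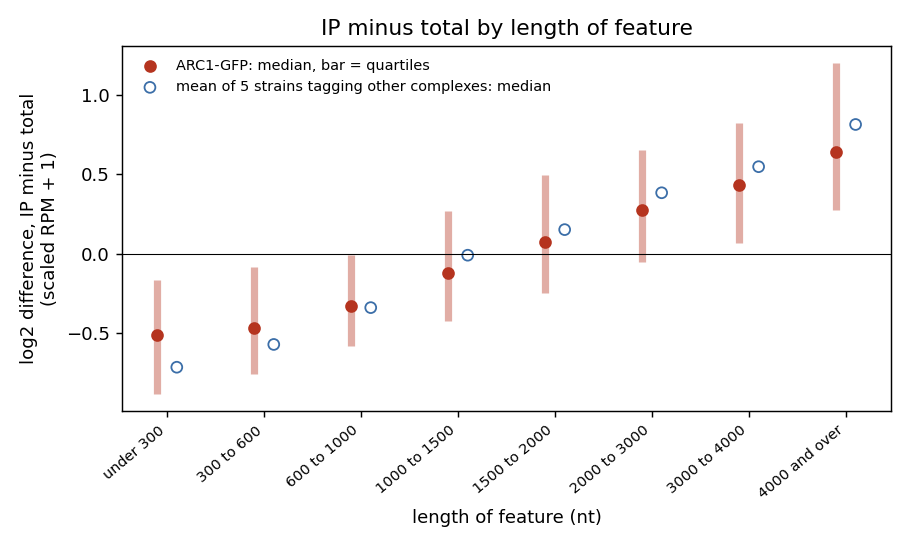
Log2 difference, IP minus total, by length of the feature in nt: median with quartiles in ARC1-GFP (filled, bar) and median in the mean of 5 strains with other tagged complexes (open). Medians run from -0.51 to 0.64 in ARC1-GFP and from -0.71 to 0.81 in the 5 strains.

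Features over non-coding RNA genes held the highest difference of all. YJL047C-A, which overlaps a small nucleolar RNA gene, had 1173 and 2260 scaled RPM in the IPs and 15.5 and 2.73 in the totals (7.70 ± 1.50 SE, limma adjusted p = 0.0603). It stood at 6.44 in the mean of the 5 strains with other tagged complexes and at 5.48 over PFK1-GFP and PFK2-GFP alone. Of 57 such features 28 passed the filter, with a median of 0.57 and ASC1, whose intron holds a small nucleolar RNA and which encodes a ribosomal scaffold protein, lowest at -0.75. Reads there cannot be assigned to the coding gene or the non-coding RNA.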

How the data were processed

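Yeast ribosome footprints of 2 IP and 2 total ARC1-GFP libraries were compared. The submitters' processing notes name cutadapt 1.8.3, an adapter trimmer. The aligner, the build, the counting rule and its strand setting were not given in the sources used here. No deposited table has a header line. Values were taken as the authors' RPM from the low values of each deposited column, which are multiples of a single step whose inverse gives the implied reads. Only 25.4% to 73.8% of the values above 0 in ARC1-GFP libraries were whole reads within 0.01 read, so no count test was used. The design had allowed for counts.

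Coordinates are those of the deposited tables; of 6605 features, 5919 matched a locus tag of the RefSeq table (assembly R64), which gave the symbols, and 5868 had the same coordinates there. The 28 mitochondrial features were left out, since libraries differ in whether they list them at 0. RPM were divided by a library factor, the trimmed mean of log ratios without weights (0.3 trimmed on ratios and 0.05 on means), then set to log2(value + 1), so that changes of low genes are understated, and kept at a mean of at least 5 RPM. The 40 libraries of 10 replicated strains were fitted with a mean per strain and fraction (limma-trend 3.58.1, R 4.3.3), with no block. All tests are two-sided. The limma step was tested on simulated data.

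The tables write minus-strand coordinates in 2 ways, 29 descending and 21 ascending. ARC1-GFP pair 1 is descending and pair 2 ascending, so each pair's value is within 1 layout. Same-numbered IPs and totals deviated together in 8 of the 10 strains (r = 0.23 to 0.84) but not in FAS1-GFP FAS2dMPT (0.092) or ARC1-GFP (-0.003). No label says what a number marks, so the fit did not take the numbers as pairs. Values by pair, counts in both pairs and the choice of named genes match libraries by number alone. Replicates differed beyond counting noise (chi-square per degree of freedom 2.12 in IPs, 3.44 in totals), and none was counted as 1 library.

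The named genes are the 3 complex genes; called genes, up to 10 each way; the 10 highest and 10 lowest differences and 5 highest and 5 lowest excesses among features with their own symbol, no overlap with a non-coding RNA gene and the same direction in both pairs; and of each list the highest and lowest tested member, or all members of lists of up to 8. Members and lists were chosen with earlier results of these data known. Alternatives changed scaling, pseudocount, filter, block, libraries fitted and weights. Alternatives with table layout as a term, without FAS1-GFP FAS2dMPT and without the strains that hold MATalpha-marked libraries were chosen after seeing the data.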

Additional observations from a re-analysis of the deposited data

Results flagged for a closer look

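ARC1-GFP differed from the other strains of the synthetase complex in the IP minus total difference of 4 gene and strain combinations, each tested as a difference between strains. Relative to GUS1-GFP the log2 difference was -3.55 for MES1, which neither strain tags, -4.96 for ARC1 and 3.70 for GUS1. Relative to MES1-GFP it was -3.23 for ARC1. ARC1 and GUS1 gave -0.35 and -0.31 in the strain that tags each. Their values therefore set a tagged gene against an untagged one, and do not compare a partner between strains. With only the libraries of the compared strains fitted, none of the calls relative to GUS1-GFP held. The call relative to MES1-GFP was lost when the library factor was left out. It was also lost without the strains that hold MATalpha-marked libraries. The summed deposited RPM of the 28 mitochondrial features, which entered no test, was 14710 in ARC1-GFP IP 2 and 0 in IP 1, against 1831 in total 2 and 0 in total 1. Libraries differ in whether they list these features at 0, so the values of 0 cannot be read as measured levels.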

How the results depend on the processing

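GUS1 was called in IP minus total under all 17 alternatives (log2 difference 3.12 to 3.75) and in the excess over other complexes under all 37 (3.72 to 4.07). Of 909 values of single genes under alternatives, 827 kept their direction and side of the threshold, 75 newly passed it, 5 lost it and 2 changed sign: ARC1 in the IP (0.0118 with equal totals over genes) and the excess of MFA2 (0.0644 without the strains that hold MATalpha-marked libraries).

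The count of 1 gene called in IP minus total was 6 with equal totals over genes (GUS1, HAC1, MES1, QCR6, SUR1 and YJL047C-A). It was 3 with no further scaling, with a pseudocount of 5, with a mean of at least 20 RPM and without FAS1-GFP FAS2dMPT, 5 with table layout as a term, and 14 with no filter on low values (12 higher, 2 lower). It was 491 with the ARC1-GFP libraries alone (396 higher, 95 lower) and 500 with a weight for each library. Leaving out each ARC1-GFP library gave 1 to 4, with 4 without IP replicate 1 (1 higher, 3 lower). With the replicate number as a block, the count was 439 (355 higher, 84 lower) in IP minus total. It was 3 in the excess and 5 against GUS1-GFP. No label says what the number marks, but same-numbered ARC1-GFP libraries also shared the table layout. Their mitochondrial features were all at 0 in IP 1 and total 1, and not in IP 2 or total 2. Same-numbered IPs and totals deviated with r of 0.23 to 0.84 in 8 of 10 strains and under 0.1 in the other 2, ARC1-GFP among them.

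The count in the excess was 2 with no filter, with the strains compared alone, with 28 libraries in YPD and without FAS1-GFP FAS2dMPT, 28 with weights, and 1 to 2 with a library left out (2 without FAS2-GFP IP replicate 1). Against GUS1-GFP it was 0 with these strains alone (limma; 91 at an unadjusted p under 0.05), and 3 to 4 with a library left out. Against MES1-GFP it was 0 with no further scaling (13 unadjusted) and without the strains with MATalpha-marked libraries (37 unadjusted), 18 with these strains alone, 13 with weights and 1 with any library left out. The cause of these changes was not tested. No other tool was run. Implied reads of 1.54 M in IP 2 limit the precision of low genes.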
